A study of Mus musculus with 9 samples.

Results

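Antiviral interferon-stimulated effector genes were described in RNA-seq counts of HC11 cells, a mouse mammary epithelial line derived from the BALB/c gland and used as a model of lactogenic differentiation. The 49 genes were taken by name, as effectors that act on viral RNA, proteins or membranes after interferon has signalled. The rule used no measured value, but the genes were chosen with earlier results of these data known. All 49 were among the 55228 genes of the count table, and 47 were among the 15253 genes that passed the expression filter and were tested. *Phf11d* and *Epsti1* did not pass it. The study compared parental HC11 cells, named *WT*, with *KD1* and *KD2*, each a single-colony clone made by nucleofection with its own *Vangl2* sgRNA and a repair template carrying stop codons. The labels call both lines *Vangl2* knockouts. *Vangl2* encodes a membrane protein of planar cell polarity. Each line had 3 samples, called cultures here. All were undifferentiated cells grown with serum, insulin and epidermal growth factor, and no interferon treatment is named for any group. As each *KD* line is 1 clone and no clone without a *Vangl2* guide was analysed here, loss of *Vangl2* and differences between clones cannot be told apart. Nothing in the labels shows how separately the 3 cultures of a line were grown, so the p-values measure the spread between these samples, which may be technical.

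Type I interferons bind the receptor IFNAR, whose kinases JAK1 and TYK2 activate ISGF3, a transcription factor that binds the interferon-stimulated response element (ISRE) in the promoters of its target genes. STAT proteins can also bind a shorter palindrome, and several IRF proteins can bind the ISRE without interferon. The products of the target genes tag proteins with ISG15, block translation of foreign RNA, drain nucleotides, sense nucleic acids, hold virions at the membrane or modify proteins with ADP-ribose.

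The promoters are shown first because the ISRE is what many of these genes are known to share. RefSeq promoter sequences of GRCm38.p6, from 250 bases before to 50 bases after each start site (a length of 300 bases), were found for 39 of the 49 genes. The core of the ISRE was searched on both strands as GAAA, any 2 bases and GAAA again, which reads TTTC, 2 bases and TTTC on the other strand. It was present in 14 of the 39 genes (35.9%), against 3.99% of all 27025 genes with a promoter in that set. Per promoter, the core was in 17 of 52 (32.7%), against 1131 of 32851 (3.44%). The STAT palindrome TTCNNNGAA was in 8 of the 39 genes (20.5%), against 9.55% of all genes. Counted at each position, there were 26 cores, some of which overlap each other. Of these, 1 overlapped a STAT palindrome, in *Bst2*. These genes were listed for their known response to interferon, so the shares describe the list. A match is only a run of letters, and a promoter with no match says nothing of any factor. Full promoters are printed 5′ to 3′ on the strand of the gene, with every core in capitals, for *Isg15*, *Ifit1* and *Rsad2*, which rose in both lines and carry cores, and for *Sp100*, which rose strongly in *KD2* and carries none. *Isg15* lies at chr4:156200769-156201068 on the minus strand, *Ifit1* at chr19:34640639-34640938 on the plus strand, *Rsad2* at chr12:26456403-26456702 on the minus strand and *Sp100* at chr1:85649738-85650037 on the plus strand.
Isg15: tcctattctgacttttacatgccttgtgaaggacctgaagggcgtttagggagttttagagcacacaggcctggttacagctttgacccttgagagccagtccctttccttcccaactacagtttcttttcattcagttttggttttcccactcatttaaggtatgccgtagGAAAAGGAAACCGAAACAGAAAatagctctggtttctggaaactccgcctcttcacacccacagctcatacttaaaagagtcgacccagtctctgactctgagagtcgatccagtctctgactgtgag
Ifit1: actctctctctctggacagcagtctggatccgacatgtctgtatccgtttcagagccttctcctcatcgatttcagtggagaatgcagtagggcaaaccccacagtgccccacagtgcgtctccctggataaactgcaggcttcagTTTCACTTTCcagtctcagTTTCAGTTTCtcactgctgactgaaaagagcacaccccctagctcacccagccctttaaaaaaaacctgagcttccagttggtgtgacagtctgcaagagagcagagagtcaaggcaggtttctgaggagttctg
Rsad2: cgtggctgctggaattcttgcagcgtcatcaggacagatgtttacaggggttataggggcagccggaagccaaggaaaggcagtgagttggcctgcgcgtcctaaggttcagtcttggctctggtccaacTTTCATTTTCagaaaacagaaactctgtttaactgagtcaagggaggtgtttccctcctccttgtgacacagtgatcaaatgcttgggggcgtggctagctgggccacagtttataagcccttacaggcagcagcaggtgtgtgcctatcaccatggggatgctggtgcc
Sp100: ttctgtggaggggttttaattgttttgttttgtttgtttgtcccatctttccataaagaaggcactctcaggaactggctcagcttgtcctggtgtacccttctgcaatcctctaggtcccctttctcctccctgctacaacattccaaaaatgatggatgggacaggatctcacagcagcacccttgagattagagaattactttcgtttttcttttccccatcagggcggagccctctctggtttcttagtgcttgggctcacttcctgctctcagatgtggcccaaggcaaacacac

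Shorter stretches of 50 bases around 1 core in capitals are shown for genes with near-identical neighbours or a large change. They lie at chr8:61928048-61928097 on the plus strand (*Ddx60*), chr7:104465200-104465249 on the minus strand (*Trim30a*), chr11:78984880-78984929 on the minus strand (*Lgals9*), chr15:77411110-77411159 on the minus strand (*Apol9a*), chr15:77729015-77729064 on the plus strand (*Apol9b*), chr19:34583387-34583436 on the plus strand (*Ifit3*) and chr19:34607783-34607832 on the plus strand (*Ifit3b*). The first base of the core stood at position -19 from the start site in *Ddx60*, at -36 in *Trim30a* and at 15 in *Lgals9*. The stretches of *Apol9a* and *Apol9b* were identical, as were those of *Ifit3* and *Ifit3b*, although the cores stood at -59 and -37, and at -122 and -154.
Ddx60: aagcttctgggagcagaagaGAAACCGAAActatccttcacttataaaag
Trim30a: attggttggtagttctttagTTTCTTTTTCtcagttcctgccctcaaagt
Lgals9: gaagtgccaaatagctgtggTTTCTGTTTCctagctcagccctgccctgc
Apol9a: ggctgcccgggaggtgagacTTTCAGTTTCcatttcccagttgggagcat
Apol9b: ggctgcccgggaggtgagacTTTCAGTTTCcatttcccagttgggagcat
Ifit3: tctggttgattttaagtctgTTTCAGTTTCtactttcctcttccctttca
Ifit3b: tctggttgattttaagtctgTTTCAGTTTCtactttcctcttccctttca

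**Figure D1:**
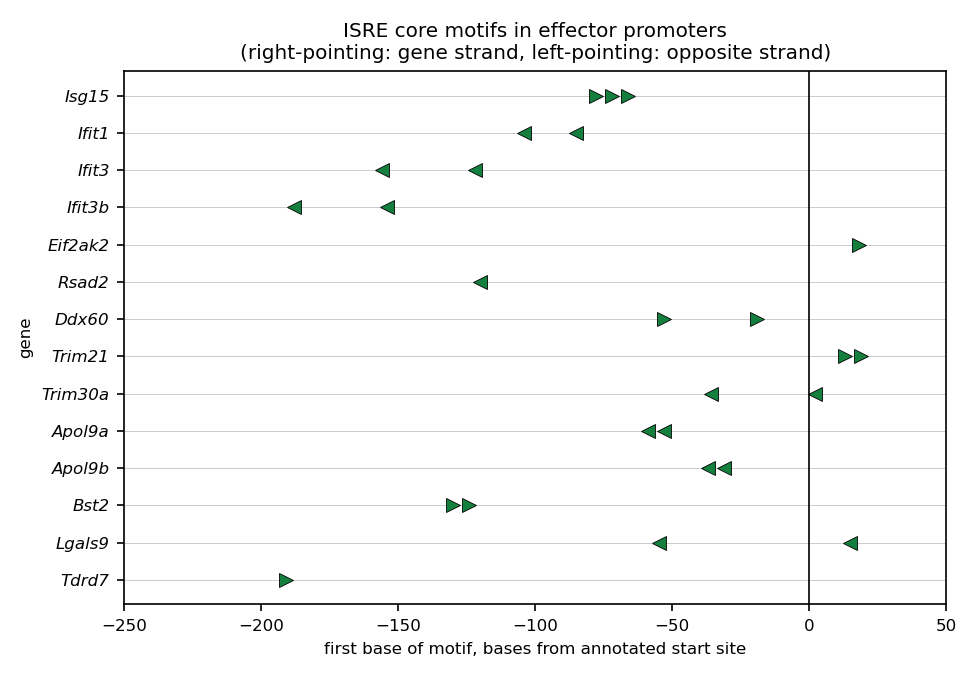
Positions of the ISRE cores (triangles) in the promoters of the 14 genes that hold at least 1, in bases from the start site of each promoter, with 1 row per gene. Triangles pointing right mark cores that read GAAA on the strand of the gene, those pointing left cores that do so on the opposite strand. In 11 of the 14 genes the core was found at more than 1 position. Cores at neighbouring positions overlap each other in *Isg15*, *Trim21*, *Bst2*, *Apol9a* and *Apol9b*, and those of *Trim30a* lie in different promoters.

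Between 19231428 and 28360592 reads per culture were counted on genes. Levels are given as CPM, counts per library after TMM scaling to the same size, and 3 counts, used as the floor of what a library can show, are 0.0999 to 0.154 CPM. The floor covers counting error only, since the reads carried no molecular identifiers. *KD2* replicate 3 stood apart from its line, with a chi-square per degree of freedom of 17.4 and 22.1 against the other 2 cultures, where these gave 1.74 against each other. *WT* replicate 1 stood apart less, at 10.7 and 13.1. The *Vangl2* transcript counts were 66, 99 and 86 for *WT*, 75, 48 and 69 for *KD1* and 90, 118 and 90 for *KD2*. Its level was lower in *KD1* than in *WT* (log2 fold change -0.63, adjusted p = 0.0058, edgeR). The transcript alone leaves the label of *KD2* unchecked. At the protein level, immunoblots in the paper found VANGL2 nearly or wholly absent from *KD1* cells and strongly reduced, though still present, for *KD2*. Epithelial markers summed to 4881 to 5462 CPM in *WT*, 5538 to 5678 in *KD1* and 2942 to 3645 in *KD2*, with 7 of 8 detected and *Krt19* at 0. Most of the sum came from *Krt5* and *Krt14*, and the markers did not all go the same way in *KD2*. *Krt5* had 38263, 54210 and 45525 counts in *WT* and 26171, 29046 and 25216 in *KD2*. *Krt8* had 2595, 4192 and 3526 in *WT* and 6374, 7354 and 6127 in *KD2*. *Krt14*, *Epcam* and *Cdh1* were also lower in *KD2*, whereas *Krt18* and *Krt7* overlapped *WT*. The 9 haematopoietic markers summed to 0.195 to 0.307 CPM in *WT*, 0.484 to 0.812 in *KD1* and 1.50 to 2.06 in *KD2*. *Adgre1* and *Tyrobp* were at 0 in every culture, *Ptprc* had at most 2 counts in any, and *Lyz2* had 31, 41 and 27 counts in *KD2* against at most 1 elsewhere. *Csf1r* had 13, 6 and 7 counts in *KD1*, against 1, 2 and 2 in *WT* and 2, 3 and 0 in *KD2*. Endothelial markers summed to 2.05 to 2.49 CPM in *WT*, 4.87 to 5.51 in *KD1* and 1.43 to 2.10 in *KD2*. Most of this was *Pecam1*, with 39, 51 and 50 counts in *WT*, 125, 132 and 122 in *KD1* and 22, 28 and 19 in *KD2*. *Cdh5* went the other way in *KD2*, at 22, 24 and 7 counts against 0, 0 and 1 in *WT*, as did *Tek*. Fibroblast markers summed to 13.4 to 18.96 CPM in *WT*, 7.99 to 9.97 in *KD1* and 23.6 to 24.6 in *KD2*. In *KD1*, *Col1a1* fell from 108, 216 and 142 counts in *WT* to 14, 13 and 17, and *Col1a2* was at 0. *Pdgfra* did not fall with them, at 133, 218 and 171 counts in *WT* and 256, 216 and 180 in *KD1*. The part of all these markers in the results was not tested. In bulk samples a larger share of expressing cells and more RNA per cell cannot be told apart.

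Both *KD* lines carried more effector RNA than *WT*. Summed over the 49 genes, the level was 905 to 936 CPM in the *WT* cultures, 1605 to 1649 in *KD1* and 1766 to 1843 in *KD2*, so the 3 lines did not overlap. Calls required an adjusted p under 0.05 together with a log2 fold change above 1 or below -1 in the quasi-likelihood test of edgeR, with Benjamini-Hochberg adjustment over all genes tested, which is the test meant wherever edgeR is named. Of the 47 genes tested, 25 were called higher in *KD1* than in *WT* (53.2%), where 9.34% of all genes tested were, and 0 were called lower, against 7.49% of all genes. Without the limit on the fold, 38 passed as higher and 1 as lower in *KD1*, against 26.9% and 30% of all genes tested, and 8 did not pass. In *KD2*, 35 were called higher than in *WT* (74.5%, against 14.5% of all genes) and 0 lower (against 6.71%). Without the limit on the fold, 44 passed as higher and 1 as lower, against 34% and 33.3% of all genes, and 2 did not pass. At an unadjusted p under 0.05, 2 of the 47 were lower in *KD1* and 1 in *KD2*, and DESeq2 called 0 lower in either. The median log2 fold change of the 47 genes was 1.24 in *KD1* and 2.28 in *KD2*, against -0.03 and 0.01 over all genes tested. In *KD1*, 40 of the 47 had no overlap between its cultures and those of *WT*, and in *KD2* 45 had none. Over all genes tested, 68.8% in *KD1* and 67.9% in *KD2* had no overlap, in either direction. Without *KD2* replicate 3, the number called higher in *KD2* was 36 and the median 2.23. Genes near 0 in *WT* could pass the filter through a *KD* line alone, and these had no room to be called lower. With at least 10 counts required in every culture, 31 genes were left, with medians of 0.87 in *KD1* and 1.20 in *KD2*. Of these, 14 and 20 were called higher, against 6.23% and 9.54% of all genes under that filter.

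**Figure D2:**
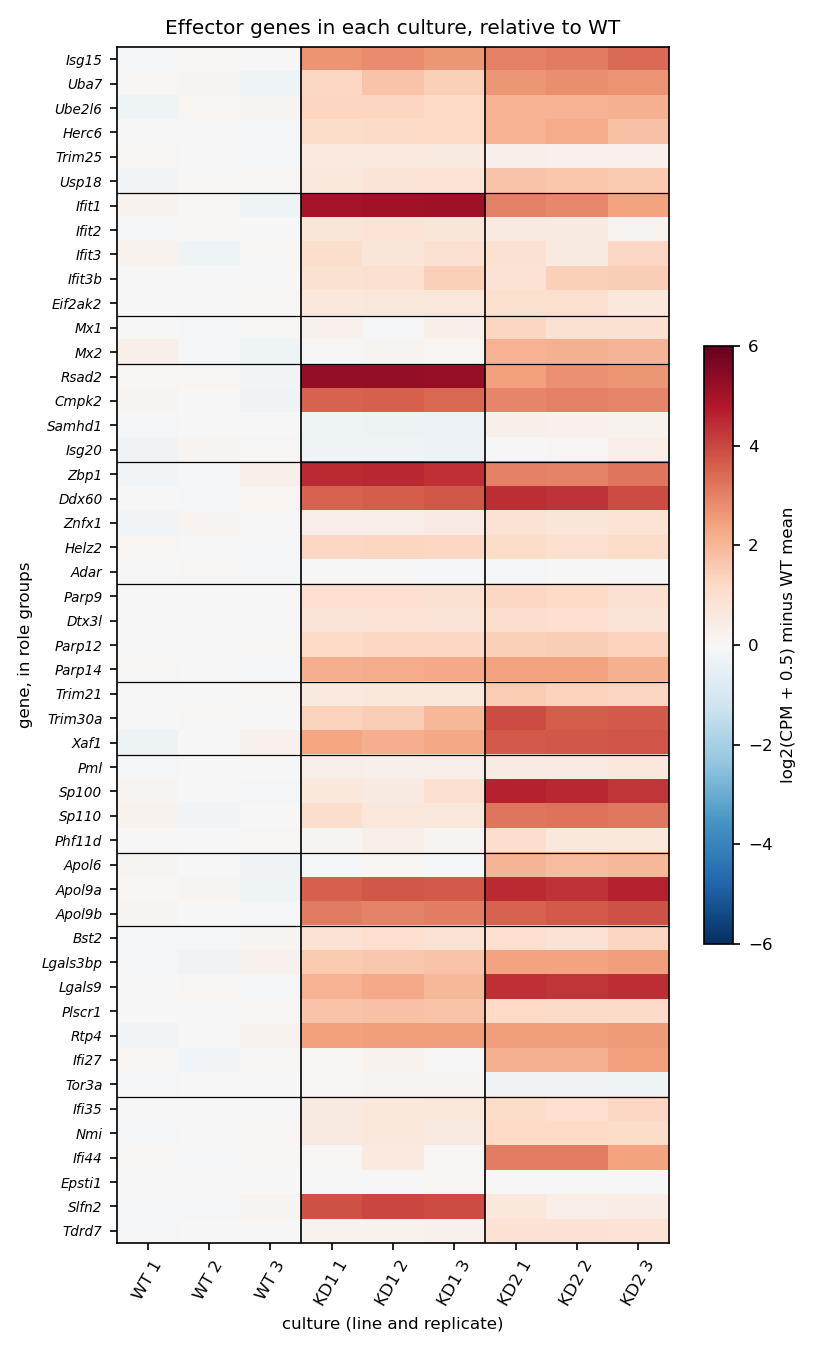
Level of each effector gene in each of the 9 cultures, as log2(CPM + 0.5) minus the mean of the *WT* cultures, with genes in rows by role and cultures in columns by line. *Ifit1*, *Rsad2* and *Slfn2* are darker red in *KD1* and *Sp100*, *Lgals9* and *Ifi44* in *KD2*, while *Adar* stays pale in all 9 columns.

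The lines shared 24 of the genes called higher, which were 51.1% of those tested, where 602 of all genes tested (3.95%) were called higher in both. Both comparisons used the same *WT* cultures. Of all genes tested, 9.34% were called higher in *KD1* and 14.5% in *KD2*, each share counting the genes called in both. *Slfn2* was called in *KD1* and not in *KD2*. The 11 called in *KD2* and not in *KD1* were *Usp18*, *Mx1*, *Mx2*, *Parp9*, *Trim21*, *Apol6*, *Bst2*, *Ifi27*, *Ifi35*, *Nmi* and *Ifi44*. Another 11 were called in neither, namely *Trim25*, *Ifit2*, *Eif2ak2*, *Samhd1*, *Isg20*, *Znfx1*, *Adar*, *Dtx3l*, *Pml*, *Tor3a* and *Tdrd7*. A call in one line alone is not a difference between the lines, which was tested directly and is given after the role groups. Calls and gaps between lines in the role groups stand against shares over all genes tested. Without the limit on the fold, 26.9% passed as higher in *KD1* and 34% in *KD2*. No overlap with *WT*, in either direction, was found for 68.8% in *KD1* and 67.9% in *KD2*.

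The genes of the ISG15 system rose in both lines. ISG15 is a ubiquitin-like protein that is attached to other proteins, by the E1 enzyme UBA7, the E2 enzyme UBE2L6 and the ligase HERC6, and USP18 removes it. Of the 6 genes, 4 were called higher in *KD1* and 5 in *KD2*, against 9.34% and 14.5% of all genes tested. The rest passed the adjusted p alone, as higher. Without the limit on the fold, 26.9% and 34% of all genes passed as higher. *Isg15* was at 1.02, 1.20 and 1.17 CPM across the *WT* cultures, at 10.0, 11.2 and 9.84 in *KD1* and at 12.9, 13.5 and 17.0 in *KD2*. *Isg15* rose by 3.18 on the log2 scale in *KD1* (standard error 0.160, adjusted p = 8.0e-10, edgeR) and by 3.66 in *KD2* (standard error 0.156, adjusted p = 2.2e-10, edgeR). Every *KD* culture lay above every *WT* culture. All 3 enzymes of the conjugation were called in both lines. They had log2 fold changes in *KD1* and *KD2* of 2.11 and 3.55 for *Uba7*, which overlaps *Gm20661*. The values were 1.40 and 2.29 for *Ube2l6*, and 1.19 and 2.09 for *Herc6*, which shares 12.5% of its 50-base windows with other genes. *Usp18*, which also holds back signalling from IFNAR, rose by 0.84 in *KD1* (adjusted p = 3.9e-05, edgeR) and by 1.76 in *KD2* (adjusted p = 1.2e-08, edgeR). *Trim25*, a ubiquitin ligase for the RNA sensor RIG-I, was at 144, 140.1 and 131 CPM across the *WT* cultures, at 205, 207 and 198 in *KD1* and at 172, 163 and 164 in *KD2*. *Trim25* rose by 0.56 on the log2 scale in *KD1* (standard error 0.0570, adjusted p = 1.4e-06, edgeR) and by 0.27 in *KD2* (standard error 0.0570, adjusted p = 8.5e-04, edgeR). It had the most counts of the group and the smallest change, with the lines still apart from *WT*.

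Every gene of the RNA-binding and translation group rose in both lines. The IFIT proteins bind foreign RNA ends and hold back their translation, and EIF2AK2 (PKR) is a kinase that stops translation when it binds double-stranded RNA. Of the 5 genes, 3 were called higher in each line, against 9.34% of all genes tested in *KD1* and 14.5% in *KD2*. *Ifit2* and *Eif2ak2* passed the adjusted p alone. *Ifit1* was at 0.717, 0.600 and 0.391 CPM across the *WT* cultures, at 33.3, 34.4 and 36.0 in *KD1* and at 8.12, 7.26 and 5.12 in *KD2*. *Ifit1* rose by 5.91 on the log2 scale in *KD1* (standard error 0.190, adjusted p = 6.7e-12, edgeR) and by 3.59 in *KD2* (standard error 0.228, adjusted p = 1.0e-08, edgeR). The 3 lines were fully separate, with *KD1* highest. *KD2* replicate 3 was the lowest of its line, and without it the *KD2* value was 3.77. *Ifit3b* had 0, 0 and 0 counts across the *WT* cultures, with 12, 12 and 21 in *KD1* and 10, 25 and 18 in *KD2*. Against a floor of 3 counts over the *WT* group, *KD1* stood at least 12.6-fold higher and *KD2* at least 15.3-fold higher. *Ifit3* had 9, 5 and 8 counts in *WT*, 34, 23 and 27 in *KD1* and 27, 22 and 30 in *KD2*, with log2 fold changes of 1.66 and 1.64. *Ifit3* and *Ifit3b* share 51.2% and 45.0% of their 50-base windows with other genes, mostly each other, so their counts are uncertain. *Eif2ak2* was at 50.5, 50.6 and 54.8 CPM across the *WT* cultures, at 81.8, 82.7 and 83.0 in *KD1* and at 102, 102 and 80.5 in *KD2*. *Eif2ak2* rose by 0.67 on the log2 scale in *KD1* (standard error 0.0840, adjusted p = 1.2e-05, edgeR) and by 0.87 in *KD2* (standard error 0.0840, adjusted p = 6.5e-07, edgeR). All cultures of both lines were above *WT*. *Ifit2*, at log2 fold changes of 0.76 and 0.42 in the lines, was the more abundant IFIT gene in *WT*, at 38.5, 45.4 and 43.1 CPM.

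The Mx genes rose in *KD2*. MX proteins are dynamin-like GTPases that block incoming viral nucleoproteins, and *Mx1* is defective in many inbred mouse strains. *Mx1* had 2, 2 and 3 counts across the *WT* cultures, with 6, 2 and 6 in *KD1* and 24, 20 and 13 in *KD2*. The ratio of summed counts, scaled to library size, was 1.68 in *KD1* (95% interval 0.635 to 4.92) and 7.05 in *KD2* (3.21 to 18.3). These intervals cover counting error only. In the test, the change was 0.72 in *KD1* (adjusted p = 0.33, edgeR) and 2.76 in *KD2* (adjusted p = 7.9e-05, edgeR). *Mx2*, annotated as a polymorphic pseudogene, had 6, 3 and 1 counts across the *WT* cultures, with 5, 6 and 5 in *KD1* and 56, 70 and 44 in *KD2*. *Mx2* had a log2 difference from *WT* of 0.41 in *KD1* (standard error 0.522, adjusted p = 0.54, edgeR) and rose by 3.83 on the log2 scale in *KD2* (standard error 0.331, adjusted p = 2.1e-07, edgeR). For both genes the *KD1* cultures overlapped those of *WT* and the *KD2* cultures did not.

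Among genes that act on nucleotides and RNA, *Rsad2* and *Cmpk2* rose strongly and *Samhd1* moved in opposite directions. RSAD2 (viperin) makes a chain-terminating form of CTP, and CMPK2, encoded next to it, is a mitochondrial nucleotide kinase. *Rsad2* was at 0.256, 0.280 and 0.147 CPM across the *WT* cultures, at 27.9, 27.8 and 26.5 in *KD1* and at 3.56, 4.39 and 4.08 in *KD2*. *Rsad2* rose by 6.86 on the log2 scale in *KD1* (standard error 0.164, adjusted p = 3.8e-13, edgeR) and by 4.10 in *KD2* (standard error 0.216, adjusted p = 1.6e-09, edgeR). As a ratio this was 116-fold in *KD1* and 17.1-fold in *KD2*, with the 3 lines fully apart. These ratios rest on 5, 7 and 3 counts in *WT*, so their size is uncertain. The same holds for *Cmpk2* (7, 7 and 3 counts in *WT*), *Zbp1* (2, 3 and 7) and *Trim30a* (4, 6 and 4). *Cmpk2* was at 0.359, 0.280 and 0.147 CPM across the *WT* cultures, at 8.23, 8.57 and 7.66 in *KD1* and at 5.25, 5.66 and 5.31 in *KD2*. *Cmpk2* rose by 4.94 on the log2 scale in *KD1* (standard error 0.201, adjusted p = 7.8e-11, edgeR) and by 4.35 in *KD2* (standard error 0.213, adjusted p = 8.0e-10, edgeR). The order of the lines was that of *Rsad2*. *Samhd1*, which encodes an enzyme that breaks down deoxynucleotides, was at 109, 115 and 114 CPM across the *WT* cultures, at 94.2, 90.8 and 89.4 in *KD1* and at 139.7, 136 and 129.8 in *KD2*. *Samhd1* fell by 0.30 on the log2 scale in *KD1* (standard error 0.0560, adjusted p = 4.4e-04, edgeR) and rose by 0.27 on the log2 scale in *KD2* (standard error 0.0560, adjusted p = 8.1e-04, edgeR). It was thus slightly lower in *KD1* and slightly higher in *KD2*. It had no overlap with *WT* in either, like 68.8% and 67.9% of all genes tested. Over all tested genes of chromosome 2, where it lies, the median change was -0.17 and 0.14 on the log2 scale in *KD1* and *KD2*. *Isg20*, which encodes an exonuclease, was at 13.6, 17.6 and 16.5 CPM across the *WT* cultures, at 13.8, 13.6 and 12.3 in *KD1* and at 16.1, 16.6 and 20.8 in *KD2*. Its changes, -0.27 in *KD1* (adjusted p = 0.068, edgeR) and 0.16 in *KD2* (adjusted p = 0.25, edgeR), did not pass, and its cultures overlapped those of *WT*.

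Among sensors, helicases and RNA editing, 3 of 5 genes were called higher in each line. Of all genes tested, 9.34% were in *KD1* and 14.5% in *KD2*. ZBP1 binds nucleic acids in the Z form and can start necroptosis, DDX60, ZNFX1 and HELZ2 are helicases or helicase-like, and ADAR edits adenosine to inosine in double-stranded RNA. *Zbp1* was at 0.102, 0.120 and 0.342 CPM across the *WT* cultures, at 14.4, 15.1 and 13.5 in *KD1* and at 5.09, 4.79 and 5.81 in *KD2*. *Zbp1* rose by 6.24 on the log2 scale in *KD1* (standard error 0.222, adjusted p = 1.8e-11, edgeR) and by 4.78 in *KD2* (standard error 0.257, adjusted p = 2.0e-09, edgeR). Every *KD* culture was above every *WT* culture, and *KD1* was highest. *Ddx60* was at 0.717, 0.680 and 0.879 CPM across the *WT* cultures, at 14.1, 15.0 and 16.3 in *KD1* and at 27.0, 24.5 and 18.6 in *KD2*. *Ddx60* rose by 4.32 on the log2 scale in *KD1* (standard error 0.194, adjusted p = 2.3e-10, edgeR) and by 4.95 in *KD2* (standard error 0.187, adjusted p = 7.4e-11, edgeR). *KD2* replicate 3 was the lowest of its line but still above every *KD1* culture. *Helz2* was at 44.9, 42.0 and 38.6 CPM across the *WT* cultures, at 100.2, 101 and 98.4 in *KD1* and at 90.6, 83.8 and 91.3 in *KD2*. *Helz2* rose by 1.26 on the log2 scale in *KD1* (standard error 0.0670, adjusted p = 1.4e-09, edgeR) and by 1.08 in *KD2* (standard error 0.0670, adjusted p = 7.4e-09, edgeR). Both lines were well apart from *WT*. *Znfx1* rose by 0.44 in *KD1* and 0.81 in *KD2*, by the adjusted p alone. *Adar* was at 61.0, 62.5 and 57.9 CPM in *WT*, 60.03, 59.2 and 58.4 in *KD1* and 57.7, 59.8 and 59.3 in *KD2*, with log2 fold changes of -0.03 and -0.04. It passed in no comparison, its cultures overlapped in all, and it shares 14.4% of its windows with *Chrnb2* and others.

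The ADP-ribosylation group changed by similar amounts in both lines. PARP12 and PARP14 attach single ADP-ribose units to proteins, and PARP9 acts in a complex with the ubiquitin ligase DTX3L. Of the 4 genes, 2 were called higher in *KD1* and 3 in *KD2*, against 9.34% and 14.5% of all genes tested. The others passed the adjusted p alone. *Parp14* was at 13.2, 12.9 and 11.6 CPM across the *WT* cultures, at 58.6, 59.8 and 61.9 in *KD1* and at 70.2, 69.5 and 57.4 in *KD2*. *Parp14* rose by 2.26 on the log2 scale in *KD1* (standard error 0.0890, adjusted p = 5.1e-11, edgeR) and by 2.39 in *KD2* (standard error 0.0890, adjusted p = 6.4e-11, edgeR). All *KD* cultures were above *WT*, and the 2 *KD* lines overlapped each other. *Parp12* was at 28.1, 27.8 and 29.9 CPM across the *WT* cultures, at 66.5, 67.7 and 68.7 in *KD1* and at 77.2, 80.5 and 75.9 in *KD2*. *Parp12* rose by 1.24 on the log2 scale in *KD1* (standard error 0.0590, adjusted p = 4.2e-10, edgeR) and by 1.44 in *KD2* (standard error 0.0590, adjusted p = 1.5e-10, edgeR). Here too no *KD* culture reached down to *WT*. *Parp9* and *Dtx3l*, which overlap in their exons and may share reads, rose by 0.98 and 0.79 in *KD1* and by 1.13 and 0.96 in *KD2*.

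*Trim30a*, *Trim21* and *Xaf1* were all called higher in *KD2*, and *Trim30a* and *Xaf1* in *KD1* too. TRIM21 is a ubiquitin ligase that recognises antibody-coated virus in the cytosol, TRIM30A is known to restrain inflammatory signalling, and XAF1 promotes apoptosis. *Trim30a* was at 0.205, 0.240 and 0.195 CPM across the *WT* cultures, at 1.37, 1.49 and 2.30 in *KD1* and at 10.4, 8.42 and 8.51 in *KD2*. *Trim30a* rose by 2.96 on the log2 scale in *KD1* (standard error 0.333, adjusted p = 3.8e-06, edgeR) and by 5.37 in *KD2* (standard error 0.260, adjusted p = 7.2e-10, edgeR). The 3 lines formed separate steps. *Xaf1* was at 1.69, 2.28 and 2.73 CPM across the *WT* cultures, at 13.2, 11.8 and 12.9 in *KD1* and at 34.6, 35.5 and 36.4 in *KD2*. *Xaf1* rose by 2.49 on the log2 scale in *KD1* (standard error 0.127, adjusted p = 9.1e-10, edgeR) and by 3.98 in *KD2* (standard error 0.118, adjusted p = 8.2e-12, edgeR). They stood in the same order for *Xaf1*. *Trim21* rose by 0.70 in *KD1* (adjusted p = 8.2e-05, edgeR) and 1.51 in *KD2* (adjusted p = 1.9e-08, edgeR).

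The nuclear body genes held the largest fold change in *KD2*, apart from *Ifit3b*, for which only a lower bound can be given. PML builds the nuclear bodies in which SP100 resides, and SP110 is of the same family as SP100. *Sp100* had 3, 2 and 1 counts across the *WT* cultures, with 11, 9 and 16 in *KD1* and 344, 390 and 226 in *KD2*. The ratio of summed counts was 5.05 in *KD1* (95% interval 2.11 to 14.7) and 139 in *KD2* (63.4 to 378). *Sp100* rose by 2.27 on the log2 scale in *KD1* (standard error 0.489, adjusted p = 0.0012, edgeR) and by 7.03 in *KD2* (standard error 0.266, adjusted p = 7.7e-11, edgeR). The *KD2* cultures were far above both other lines. *Sp110* had 5, 2 and 3 counts across the *WT* cultures, with 24, 14 and 14 in *KD1* and 140, 173 and 110 in *KD2*. *Sp110* rose by 2.09 on the log2 scale in *KD1* (standard error 0.396, adjusted p = 4.6e-04, edgeR) and by 5.14 in *KD2* (standard error 0.277, adjusted p = 2.0e-09, edgeR). Of its windows 42.3% also occur in other genes, mostly *Gm16026*, so its count is uncertain. *Pml* was at 31.4, 34.2 and 34.3 CPM across the *WT* cultures, at 42.0, 40.9 and 42.5 in *KD1* and at 46.4, 47.1 and 52.6 in *KD2*. *Pml* rose by 0.33 on the log2 scale in *KD1* (standard error 0.0680, adjusted p = 9.3e-04, edgeR) and by 0.55 in *KD2* (standard error 0.0670, adjusted p = 7.2e-06, edgeR). These small changes left no overlap with *WT*, which held for 68.8% of all genes tested in *KD1* and 67.9% in *KD2*. *Phf11d*, a relative with a PHD finger, was not tested, with 0, 0 and 1 counts in *WT*, 2, 4 and 2 in *KD1* and 14, 9 and 6 in *KD2*. Its ratio of summed counts in *KD2* was 25.1 (4.16 to 1025).

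Of the APOL genes, intracellular relatives of an apolipoprotein, *Apol9a* and *Apol9b* rose in both lines and *Apol6* in *KD2*. *Apol9a* was at 0.410, 0.440 and 0.195 CPM across the *WT* cultures, at 9.64, 10.7 and 10.1 in *KD1* and at 18.5, 16.7 and 20.3 in *KD2*. *Apol9a* rose by 4.83 on the log2 scale in *KD1* (standard error 0.194, adjusted p = 6.8e-11, edgeR) and by 5.68 in *KD2* (standard error 0.182, adjusted p = 1.7e-11, edgeR). The 3 lines formed separate steps, with *KD2* highest. *Apol9b* had 3, 2 and 1 counts across the *WT* cultures, with 124, 105 and 110 in *KD1* and 156, 211 and 162 in *KD2*. The ratio of summed counts was 47.5 in *KD1* (95% interval 21.6 to 130.4) and 76.3 in *KD2* (34.8 to 209). *Apol9b* rose by 5.49 on the log2 scale in *KD1* (standard error 0.280, adjusted p = 9.2e-10, edgeR) and by 6.18 in *KD2* (standard error 0.261, adjusted p = 2.0e-10, edgeR). No *KD* culture overlapped *WT*, where it was at or under the floor. *Apol9b* shares 52.3% and *Apol9a* 16.5% of its windows with other genes, mostly each other. *Apol6* had 5, 5 and 2 counts across the *WT* cultures, with 4, 6 and 3 in *KD1* and 56, 60 and 45 in *KD2*. *Apol6* had a log2 difference from *WT* of -0.13 in *KD1* (standard error 0.478, adjusted p = 0.86, edgeR) and rose by 3.51 on the log2 scale in *KD2* (standard error 0.293, adjusted p = 1.5e-07, edgeR). The *KD1* cultures overlapped those of *WT*, whereas every *KD2* culture was higher. *Apol6* overlaps *Mb* in its exons.

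Of the 7 genes for membrane, secreted and chaperone proteins, 4 were called higher in *KD1* and 6 in *KD2*. The shares over all genes tested were 9.34% and 14.5%. *Lgals9*, which encodes the glycan-binding galectin 9, was at 1.49, 1.72 and 1.37 CPM across the *WT* cultures, at 8.20, 9.20 and 7.58 in *KD1* and at 41.8, 39.6 and 42.9 in *KD2*. *Lgals9* rose by 2.44 on the log2 scale in *KD1* (standard error 0.130, adjusted p = 1.5e-09, edgeR) and by 4.75 in *KD2* (standard error 0.113, adjusted p = 1.1e-12, edgeR). The lines formed separate steps, with *KD2* highest. *Rtp4*, which encodes a chaperone of receptors, was at 2.51, 2.76 and 3.37 CPM across the *WT* cultures, at 17.98, 18.7 and 18.4 in *KD1* and at 18.8, 18.3 and 19.1 in *KD2*. *Rtp4* rose by 2.67 on the log2 scale in *KD1* (standard error 0.103, adjusted p = 4.3e-11, edgeR) and by 2.70 in *KD2* (standard error 0.103, adjusted p = 8.3e-11, edgeR). Here the *KD* lines overlapped each other and not *WT*. *Lgals3bp*, a secreted glycoprotein, rose by 1.75 and 2.58, and *Plscr1*, a phospholipid scramblase, by 1.74 and 1.18. Of their 50-base windows, *Plscr1* and *Rtp4* share 12.3% and 11.6% with other genes. *Bst2* encodes tetherin, which holds budding virions at the cell surface, and rose by 0.91 in *KD1* and 1.08 in *KD2*. *Ifi27*, a small membrane protein gene, was at 20.7, 16.5 and 19.5 CPM across the *WT* cultures, at 20.1, 21.8 and 19.3 in *KD1* and at 84.6, 84.0 and 106 in *KD2*. *Ifi27* had a log2 difference from *WT* of 0.11 in *KD1* (standard error 0.111, adjusted p = 0.41, edgeR) and rose by 2.28 on the log2 scale in *KD2* (standard error 0.106, adjusted p = 5.0e-10, edgeR). Its *KD1* cultures overlapped those of *WT*. *Tor3a*, a torsin ATPase gene, was at 72.0, 77.9 and 78.2 CPM across the *WT* cultures, at 80.1, 84.0 and 84.1 in *KD1* and at 65.2, 65.9 and 64.2 in *KD2*. *Tor3a* had a log2 difference from *WT* of 0.12 in *KD1* (standard error 0.0570, adjusted p = 0.085, edgeR) and fell by 0.22 on the log2 scale in *KD2* (standard error 0.0570, adjusted p = 0.0034, edgeR). Its *KD1* cultures lay above and its *KD2* cultures below *WT*. With scaling by library size alone the *KD2* change was -0.11 and no longer passed.

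In the remaining group *Slfn2* rose most in *KD1* and *Ifi44* most in *KD2*. SLFN2 is known from the quiescence of T cells, and IFI35 and NMI form a complex. *Slfn2* was at 4.15, 4.00 and 4.83 CPM across the *WT* cultures, at 67.2, 76.8 and 72.0 in *KD1* and at 6.95, 5.89 and 6.15 in *KD2*. *Slfn2* rose by 4.06 on the log2 scale in *KD1* (standard error 0.0960, adjusted p = 3.6e-13, edgeR) and by 0.55 in *KD2* (standard error 0.116, adjusted p = 8.0e-04, edgeR). *KD1* was far above the rest, at 16.7-fold over *WT*, and *KD2* was above *WT* by less. *Ifi44* had 3, 2 and 3 counts across the *WT* cultures, with 4, 11 and 4 in *KD1* and 116, 142 and 58 in *KD2*. The ratio of summed counts was 2.00 in *KD1* (95% interval 0.835 to 5.27) and 34.2 in *KD2* (17.1 to 79.9). *Ifi44* had a log2 difference from *WT* of 0.97 in *KD1* (standard error 0.660, adjusted p = 0.23, edgeR) and rose by 5.01 on the log2 scale in *KD2* (standard error 0.390, adjusted p = 7.4e-08, edgeR). *KD1* overlapped *WT*, and *KD2* replicate 3 was the lowest *KD2* culture, without which the *KD2* change was 5.23. In *KD1* and *KD2*, *Ifi35* rose by 0.64 and 1.13 and *Nmi* by 0.60 and 1.19, both called in *KD2* and not in *KD1*. *Tdrd7*, a tudor domain gene, was at 55.3, 58.6 and 58.6 CPM across the *WT* cultures, at 67.0, 66.9 and 69.1 in *KD1* and at 106, 106 and 100.3 in *KD2*. *Tdrd7* rose by 0.24 on the log2 scale in *KD1* (standard error 0.0570, adjusted p = 0.0028, edgeR) and by 0.86 in *KD2* (standard error 0.0560, adjusted p = 1.4e-08, edgeR). All its *KD* cultures were above *WT*. *Epsti1* had 1 count in all, in *KD1* replicate 3.

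**Figure D3:**
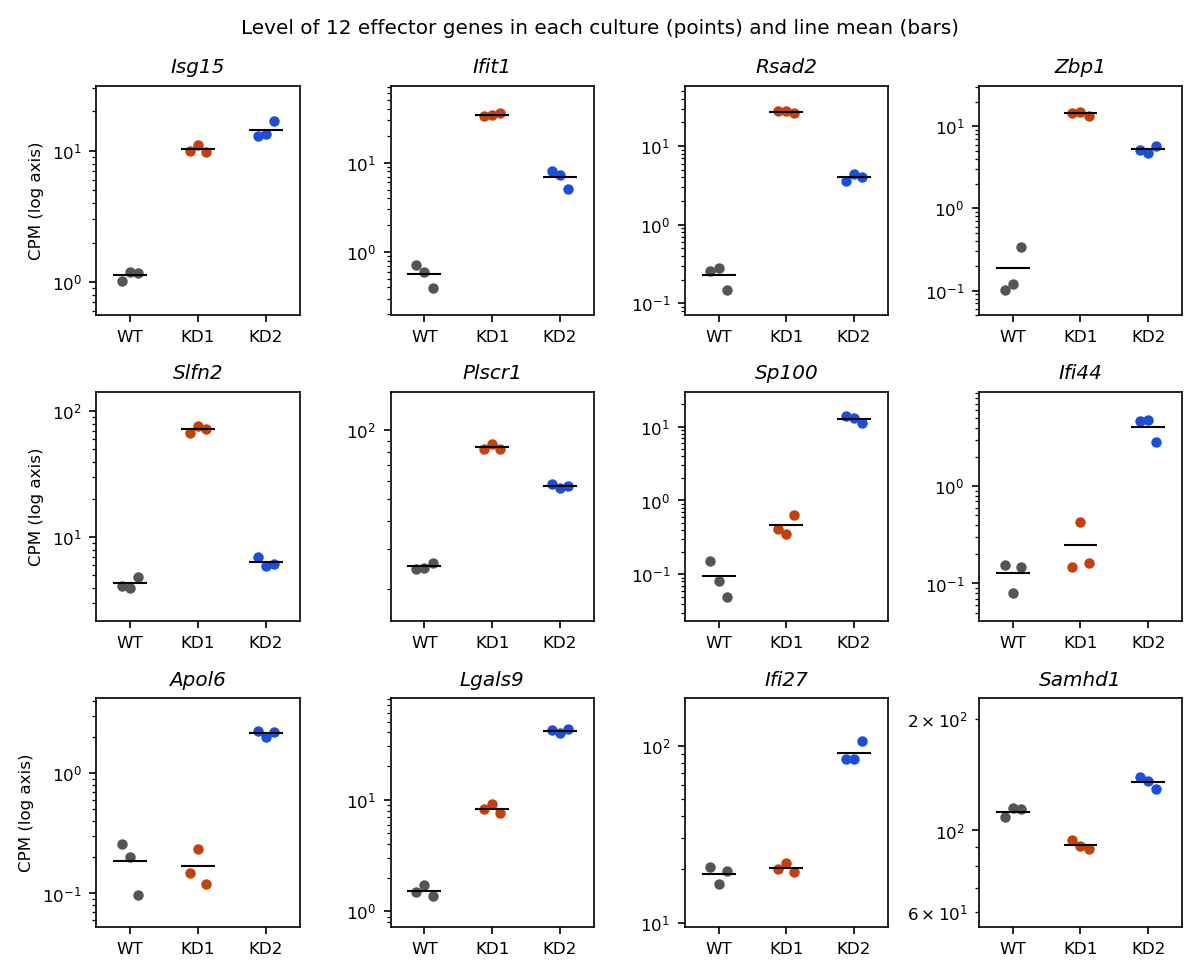
Level in CPM (log axis) of 12 effector genes in each culture, with 1 point per culture, a bar at the mean of each line and 1 panel per gene, each with its own axis. *Ifit1*, *Rsad2*, *Zbp1*, *Slfn2* and *Plscr1* are highest in *KD1*, and *Sp100*, *Ifi44*, *Apol6*, *Lgals9* and *Ifi27* are highest in *KD2*.

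In the direct test of the *KD* lines, 15 of the genes were called. In *KD2* against *KD1*, 11 of the 47 were called higher (23.4%, against 14.7% of all genes tested). The 4 called lower were close to the share over all genes, 8.58%, and 7 did not pass. Without the limit on the fold, 30 passed as higher and 10 as lower, against 34.8% and 33% of all genes. The median log2 fold change was 0.48, against 0.02 over all genes, and 38 of the 47 had no overlap between the lines, where 71.6% of all genes tested had none. Without *KD2* replicate 3 the median was 0.37, with 12 higher and 4 lower. Genes near 0 in *KD1* could pass the filter through *KD2*, and these had no room to be called lower. With at least 10 counts required in every culture, 3 of 31 were called higher and 1 lower, with a median of 0.40. Under that filter 9.6% of all genes were called higher, so the larger share among the 47 was not seen. In the fit of the 47 genes, those called lower were *Slfn2*, *Rsad2*, *Ifit1* and *Zbp1*. *Slfn2* fell by 3.51 (standard error 0.0900, adjusted p = 3.9e-13, edgeR) and *Rsad2* by 2.77 (standard error 0.10, adjusted p = 1.4e-11, edgeR). The 11 called higher were led by *Sp100*, *Ifi44*, *Apol6* and *Mx2*. *Sp100* was higher by 4.75 (standard error 0.194, adjusted p = 5.7e-11, edgeR), and *Sp110*, *Trim30a*, *Lgals9*, *Ifi27*, *Mx1*, *Xaf1* and *Uba7* were also called. The 7 that did not pass were *Ifit3*, *Ifit3b*, *Adar*, *Parp9*, *Parp14*, *Bst2* and *Rtp4*, and for *Rtp4* the difference was 0.03 (standard error 0.0800).

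**Figure D4:**
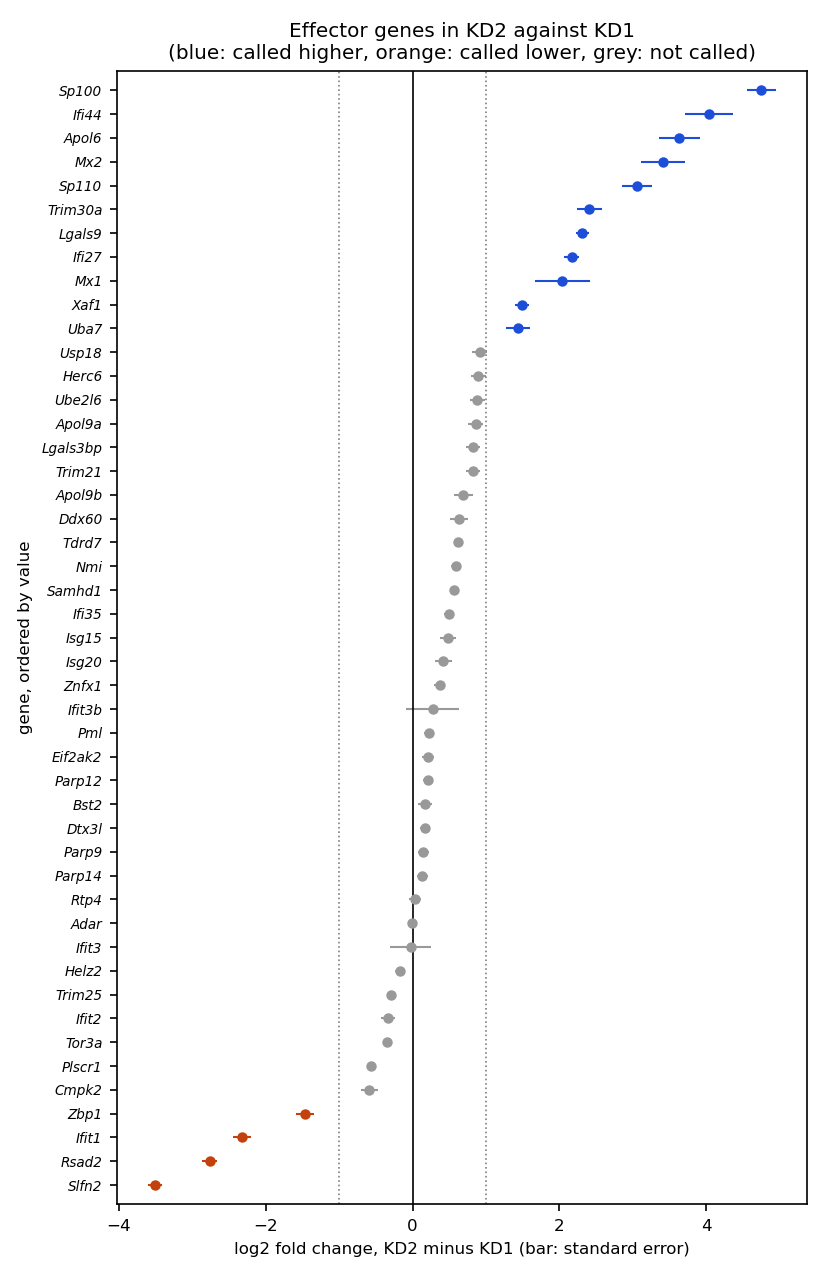
Log2 fold change of each tested effector gene in *KD2* against *KD1*, with bars of 1 standard error, sorted by value. The 4 genes called lower and the 11 called higher stand at the ends, from -3.51 for *Slfn2* to 4.75 for *Sp100*.

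Other genes of the interferon pathway were described from a list. Of 34 listed ligands, receptors, kinases, transcription factors, inhibitors, sensors and adaptors, 29 were tested. In *KD1*, 10 were called higher (34.5%, against 9.34% of all genes tested) and 2 passed as lower by the adjusted p alone. In *KD2*, 7 were called higher (24.1%, against 14.5% of all genes) and 4 passed as lower by the adjusted p alone. Their median log2 fold changes were 0.71 and 0.56. None of the 5 interferon genes of the list passed the expression filter, and counts per culture were at most 2 for *Ifnb1*, at most 3 for *Ifne*, at most 1 for *Ifnl2*, 0 for *Ifnl3* and at most 7 for *Ifng*. Among receptors, *Ifngr2* changed by 1.25 and 0.21 and *Il10rb*, a chain of the interferon lambda receptor, by 1.10 and 0.59 in *KD1* and *KD2*. Their partner chains did not follow, as *Ifngr1* fell by 0.77 and 0.35 and *Ifnlr1*, at 0.05 and -0.16, did not pass. *Ifnar1* changed by 0.21 and -0.16, and *Ifnar2* by 0.98 and 0.68. In *KD1* and *KD2*, *Stat2* changed by 0.93 and 1.63 and *Irf9* by 0.32 and 0.56. *Irf7*, which amplifies interferon production, had counts of 11, 5 and 7 in *WT*, 61, 47 and 50 in *KD1* and 100, 129 and 98 in *KD2*. *Irf7* rose by 2.51 on the log2 scale in *KD1* (standard error 0.277, adjusted p = 3.2e-06, edgeR) and by 3.60 in *KD2* (standard error 0.250, adjusted p = 2.3e-08, edgeR). *Irf1* was called in both lines at 1.55 and 1.50, as was the inhibitor *Socs3* at 1.50 and 1.08. *Socs1* and *Irf5* were called in *KD1*, at 1.12 and 1.07. Sensors and adaptors of the response to RNA and DNA were also on the list. *Ifih1* (MDA5) rose by 2.19 and 2.70, *Ddx58* (RIG-I) by 0.81 and 1.40, and *Tmem173* (STING) by 2.84 and 1.26. The kinase gene *Ikbke* rose by 3.44 and 0.97, and *Mavs*, the adaptor of the RNA sensors, fell by 0.82 and 0.71, by the adjusted p alone.

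The genes were then divided by whether their promoter holds an ISRE core. The 14 genes with a core in the promoter had median log2 fold changes of 3.07 in *KD1* and 3.88 in *KD2* (3.80 with *Ifit3b* at its bound), and 10 and 12 of them were called higher. Among the 25 with a promoter and no core, 23 were tested, the medians were 1.19 and 1.18, and 12 and 14 were called higher. The other 10 genes had no promoter sequence, so their cores are unknown. Their medians were 0.78 and 2.54, and 3 and 9 were called higher. Of all genes tested, 9.34% in *KD1* and 14.5% in *KD2* were called higher. This is a description of a list, with no test. The 14 include *Ifit3* and *Ifit3b*, and *Apol9a* and *Apol9b*, near-identical pairs that may share reads. Some of the 14 started near 0 in *WT*, such as *Rsad2* at 5, 7 and 3 counts. So did some without a core, such as *Sp100* at 3, 2 and 1. Genes with a core were spread from 0.24 (*Tdrd7*) to 6.86 (*Rsad2*) in *KD1*, and *Sp100*, at 7.03 in *KD2*, had none in its window.

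Of the genes, 13 are neighbours within 100 kb of another, in 5 loci. On GRCm38, *Sp110* and *Sp100* lie on chromosome 1 from 85576899 to 85709998, *Rsad2* and *Cmpk2* on chromosome 12 from 26442746 to 26479837 and *Mx1* and *Mx2* on chromosome 16 from 97447035 to 97560900. *Parp14*, *Dtx3l* and *Parp9* lie on chromosome 16 from 35832874 to 35972605, and the 4 IFIT genes on chromosome 19 from 34550694 to 34650009. Neighbours did not always move by like amounts. *Ifit2* rose by 0.76 and *Ifit1* by 5.91 in *KD1*. On the chromosomes that hold the tested effector genes, the median over all tested genes, on the log2 scale, ran from -0.27 to 0.15 in *KD1* and from -0.19 to 0.28 in *KD2*.

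Levels can be compared between genes only per length, as CPM per kb of exon. *Bst2* ranked first in every line, at 30.6 CPM per kb in *WT*, 57.5 in *KD1* and 64.8 in *KD2*. *Trim25* ranked second in *WT* at 24.0 CPM per kb. *Slfn2* went from 2.60 CPM per kb in *WT* to 43.3 in *KD1*, where it ranked second, and 3.81 in *KD2*. *Ifi27* ranked second in *KD2*, at 62.5, against 12.9 in *WT* and 13.9 in *KD1*. *Isg15* rose from 1.50 CPM per kb in *WT* to 13.7 in *KD1* and 19.1 in *KD2*. Large fold changes could start from low levels. *Sp100* reached 1.68 CPM per kb in *KD2* and *Ifit1* reached 13.0 in *KD1*.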

How the data were processed

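RNA was measured in 9 cultures of undifferentiated HC11 cells, 3 of each line, grouped by the titles of their labels. The authors deposited whole-number read counts per gene without normalization, after trimming with fastp, mapping to GRCm38 with HISAT2 and counting over exons with featureCounts. Versions, the strand setting and the handling of reads that map to several places are not given in the sources used here. Where a gene overlaps another, on either strand, or shares 50-base windows of its exons with others, as computed from another GENCODE release for GRCm38 than the paper's, its reads could be split or misplaced. Such overlaps were found for *Uba7*, *Herc6*, *Usp18*, *Eif2ak2*, *Znfx1*, *Adar*, *Parp9*, *Dtx3l*, *Parp14*, *Pml*, *Sp100*, *Sp110*, *Apol6*, *Rtp4* and *Ifi35*.

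Counts were tested here with edgeR 4.0.16 in R 4.3.3, by the quasi-likelihood test with TMM scaling and the default expression filter, fitting all 9 cultures together with no block. Benjamini-Hochberg adjustment covered the 15253 genes that passed the filter. Calls required an adjusted p under 0.05 and a log2 fold change above 1 or below -1. Standard errors were derived from the F statistic. The script was tested on simulated data first. For genes with at most 3 counts in every *WT* culture, ratios of summed counts with exact 95% intervals, or a lower bound against a floor of 3 counts, are given beside the fit. Depth was 19231428 to 28360592 counts per culture. Alternatives were DESeq2 1.42.0, its size factors in edgeR, library size alone, no filter beyond 1 count, at least 10 counts in every culture, only the 6 cultures compared, the replicate number as a block, and each culture left out in turn.

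The genes, the lists and their role groups were chosen with earlier results of these data known, and lists are described by counts and medians, with no set test. In each role group the gene with the most counts and those that changed most in either line are given in full, as are genes that moved in opposite directions, were called lower in any comparison or had at most 3 counts in every *WT* culture. Other listed genes are given by fold changes and counts. *Sp110*, *Ifi27* and *Irf7* were given in full after their values were seen, as were the levels of *Ifit2* and the counts of *Ifit3*. The table of promoters had entries for 39 of the 49 genes. The values of 1 gene of the pathway list are not reported here.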

Additional observations from a re-analysis of the deposited data

Results flagged for a closer look

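The change from *WT* differed between *KD1* and *KD2* in 15 genes by the direct test of the lines against each other (adjusted p under 0.05 and a log2 difference above 1 or below -1, edgeR), where 14.7% of all genes tested were called higher in *KD2* and 8.58% lower. The difference, as *KD2* minus *KD1* on the log2 scale, was 4.75 for *Sp100*, 4.04 for *Ifi44*, 3.64 for *Apol6*, 3.42 for *Mx2* and 3.06 for *Sp110*. It was 2.41 for *Trim30a*, 2.31 for *Lgals9*, 2.17 for *Ifi27*, 2.04 for *Mx1*, 1.49 for *Xaf1* and 1.44 for *Uba7*. Genes lower in *KD2* than in *KD1* were *Slfn2* at -3.51, *Rsad2* at -2.77, *Ifit1* at -2.32 and *Zbp1* at -1.46. These 4 of the 47 were close to the share of all genes called lower. With at least 10 counts required in every culture, 3 of 31 were called higher and 1 lower. Under that filter 9.6% of all genes were called higher.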

How the results depend on the processing

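Each line is 1 clone with 3 cultures, counts of *Ifit3b*, *Mx1*, *Sp100*, *Apol9b*, *Ifi44* and *Phf11d* in *WT* were at or under the floor, and strand and multiple mapping are not known. Requiring at least 10 counts in every culture, which kept 31 of the genes and drops those near 0 in a line, left 14 called higher in *KD1*, 20 in *KD2*, and 3 higher and 1 lower in *KD2* against *KD1*, with medians of 0.87, 1.20 and 0.40. Under this filter 6.23%, 9.54% and 9.6% of 12296 genes were called higher in the 3 comparisons. With only the 6 cultures compared, medians were 1.37 in *KD1* over 42 genes and 2.19 in *KD2* over 46, since fewer genes passed the filter. Library size alone gave medians of 2.39 for *KD2* against *WT* and 0.60 for *KD2* against *KD1*, and moved the median of all genes tested from 0.01 to 0.12 and from 0.02 to 0.14. Leaving out 1 culture at a time gave 25 to 27 called higher in *KD1* (medians 1.23 to 1.26), 35 to 36 in *KD2* (medians 2.15 to 2.33), and 11 to 12 higher and 4 lower in *KD2* against *KD1* (medians 0.37 to 0.53). DESeq2 called 25, 36, 11 and 4. Values that changed sign were all of genes that did not pass. For *Adar* they were 0.005, 0.010 and 0.016 in *KD1* (at least 10 counts, 6 cultures, without *WT* replicate 2), 0.073, 0.033 and 0.010 in *KD2* (library size, at least 10 counts, without *WT* replicate 2) and 0.119, 0.028 and 0.006 in *KD2* against *KD1* (library size, at least 10 counts, without *KD2* replicate 1). *Apol6* in *KD1* was at 0.126 without *WT* replicate 1 and 0.050 without *KD1* replicate 3. In *KD2* against *KD1*, *Ifit3* was at 0.10 with library size, 0.092 without *KD1* replicate 1 and 0.227 without *KD2* replicate 2, and *Rtp4* was at -0.011 without a filter. The cause was not tested. At the other end, leaving out 1 culture gave lowest values for *Adar* of -0.038 and -0.044 in *KD1* and *KD2* and -0.026 between them, for *Apol6* of -0.434 in *KD1* and for *Ifit3* of -0.265 in *KD2* against *KD1*. Over single genes, 32 values no longer passed the adjusted p, most of them for *Dtx3l*, *Eif2ak2* and *Helz2* in *KD2* against *KD1*. Another 14 newly passed it, of which *Tor3a* and *Isg20* in *KD1* made up 4 each.

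With the replicate number as a block, 25 were called higher in *KD1*, 35 in *KD2*, and 11 higher and 4 lower in *KD2* against *KD1*, with medians of 1.24, 2.28 and 0.47, and no gene crossed the adjusted p. The numbers were not taken to pair the cultures, since deviations of same-numbered cultures from their line means had correlations of -0.075 to 0.11 (mean 0.0083), against -0.12 to 0.13 for others.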
